A study of Mus musculus with 20 samples.

Results

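Acyl-CoA thioesterases are described here through the 9 genes Acot1, Acot2, Acot3, Acot4, Acot5, Acot6, Acot8, Acot12 and Acot13, chosen by name from the 25444 gene loci of the deposited tables. All 9 symbols were present at a single locus each. Of these, 8 passed the filter on low counts and were tested among 13704 genes. Acot5, with 1 count in all libraries together, was not. The 8 tested genes had counts in every library, so that none of them passed through 1 group alone.

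The data are liver RNA-seq counts from 20 mice of 20 weeks of age, 5 females and 5 males each of the inbred strains C57BL/6N (B6) and C3H/HeN (C3). The mice carried no transgene or treatment. All had been moved from NIH-31 to NTP2000 diet before sampling and were kept singly, with the sexes in separate rooms, so that sex and room cannot be told apart. The study asked whether X-linked genes are expressed in balance between the sexes, and the members all lie on autosomes. The comparisons the samples allow are female against male within each strain, C3 against B6 within each sex, and the difference between the sex effects of the strains.

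Acyl-CoA thioesterases split fatty acyl-CoA esters into a free fatty acid and coenzyme A, and so act against the acyl-CoA synthetases, which make those esters. The type I enzymes arose by gene duplication and reside in different compartments of the cell: Acot1 in the cytosol, Acot2 in mitochondria, and Acot3 to Acot6 in peroxisomes, which shorten very long and branched acyl chains. Acot8 is a peroxisomal and Acot12 a cytosolic enzyme of other folds, and Acot13 is a small thioesterase associated with mitochondria. In liver the type I genes are known as targets of the nuclear receptor PPARα, which responds to fatty acids and fasting.

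In the genome build mm9, the 6 type I genes lie side by side on the forward strand of chromosome 12, within 121.9 kb from base 85328811 to base 85450733. Their order is Acot2 (gene identifier 171210, 85328811 to 85334825), Acot1 (26897, 85350452 to 85358619), Acot4 (171282, 85379329 to 85385673), Acot3 (171281, 85393101 to 85400514), Acot5 (217698, 85410275 to 85416969) and Acot6 (217700, 85441604 to 85450733). Acot8 (170789) lies on the reverse strand of chromosome 2 from 164618268 to 164630381. Acot12 (74156) lies on the forward strand of chromosome 13 from 91881126 to 91925753, and Acot13 (66834) on its reverse strand from 24909824 to 24923358.

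The ends of the coding sequences show which products carry the signal that directs a protein into peroxisomes. This signal is the last 3 residues of the protein, with a small residue, a basic residue and then leucine or methionine. The last 30 bases of each coding sequence are printed below from 5′ to 3′ as read from mm9 with the GENCODE transcript used for that gene. The last 3 codons before the stop codon are in capitals.
Acot3: aaaaagaagacaatcccaGCAAAACTGtga
Acot4: acccacagcagagcctccTGTAGACTGtag
Acot5: gacaagaggccaagcccaGCAAAACTAtga
Acot6: gaaaagcctgccaggcacAGCAAACTGtaa
Acot8: aagcctcaggtgtcagagAGTAAGCTAtag
Acot1: gagtgtttgcatgtgtctCCTAAAATAtaa
Acot2: ttccacaaacagttgggtAGCAAGAGTtag
Acot12: actcctgatggacttaaaAGTGTGTTAtaa
Acot13: ggcagacacacaaaacacCTGGGGAACtga
The pattern of the signal was met by Acot3, Acot4, Acot5, Acot6 and Acot8, and was not met by Acot1, Acot2, Acot12 or Acot13. Acot3 and Acot5 end in the same 3 residues, with a different codon at the last position. The coding sequences of Acot1 and Acot2 were identical at 95.5% of 1239 aligned bases, and those of Acot3 and Acot5 at 85.8% of 1264. The lowest identity within the cluster was 75.2%, between Acot3 and Acot4.

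Because read pairs that align to several places were not counted, stretches shared between these genes could lose counts. Of the windows of 125 bases in the Acot1 transcript, the length of 1 sequenced read, 25.3% had an exact copy elsewhere, in Acot2, Acot3, Acot5 or Acot6. The share was 13.7% for Acot2, all in Acot1, and 11.7% for Acot8, all in a transcript of the overlapping gene Snx21 on the other strand. It was 4.66% for Acot3, 5.09% for Acot5 and 1.07% for Acot6, and no window of Acot4, Acot12 or Acot13 had a copy. The levels of Acot1 and Acot2 are uncertain to that extent. Counting was strand-specific, so that reads from genes on opposite strands were kept apart.

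Library totals ran from 27370921 to 46835745 counts. The limit of detection, taken as 3 counts per library, was between 0.059 and 0.116 CPM, counts scaled by library size, which covers counting error only. The libraries were sequenced in 3 pools, to which the study assigned them at random, and depth followed the pool. The tissue label was met by the data: the summed level of 7 hepatocyte genes (among them Alb, Apoa1 and Ttr) was between 79999.5 and 174793 TPM, counts scaled by gene length and library. This hepatocyte sum was higher in females, at 106059 to 136549 against 79999.5 to 105214 TPM in males of B6. In C3 it was at 146250 to 174793 TPM in females against 109232 to 135886 TPM in males. Alb carried this difference, with means of 87984 against 66001 CPM in B6 and 122584 against 93621 CPM in C3. Every other gene of the hepatocyte list had a lower mean CPM in females of both strains. The median log2 fold change of the list was -0.20 in B6 and -0.25 in C3, and 0 of its genes were called by sex. Sums over 7 Kupffer cell, 6 sinusoidal endothelial and 6 stellate cell markers were also higher in females. In B6 they ran from 373 to 495, 257 to 303 and 290 to 372 TPM in females, against 230 to 340, 197 to 218 and 223 to 270 TPM in males. In C3 they ran from 259 to 376, 223 to 268 and 227 to 272 TPM in females, against 165 to 246, 184 to 217 and 175 to 213 TPM in males. Sums over 7 lymphocyte markers ran from 12.4 to 16.4 TPM in B6 females against 6.63 to 13.9 in B6 males, and from 7.35 to 12.5 TPM in C3 females against 3.68 to 4.66 in C3 males. Those over 5 cholangiocyte markers overlapped in B6, at 29.1 to 52.2 TPM in females and 38.2 to 51.1 in males. They did not in C3, at 32.7 to 50.0 and 21.4 to 31.9 TPM. Spp1 was the highest of these markers, with means of 27.3 CPM in C3 females and 19.4 CPM in C3 males. Sox9 went the other way, at 1.42 against 3.85 CPM in B6 and 2.51 against 4.78 CPM in C3. By sex, 1 marker of this list was called lower and 0 higher in females of each strain. The sum of 5 adipocyte markers ran from 1.27 to 8.12 TPM in B6 males and stayed at or below 0.157 TPM in the other groups, with Lep at 0 in all livers. Its only tested gene, Cfd, was called lower in B6 females than in B6 males and lower in C3 males than in B6 males. All 8 globin loci were listed at 0 in every liver, and as read pairs that map to several places were not counted, these zeros say nothing of red blood cells. The part of these cells in the results that follow was not tested, and in bulk liver fewer cells of a type and less RNA per cell cannot be told apart.

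Levels were compared between genes in TPM, which is scaled by gene length. Acot13 and Acot12 were the highest, with means over the 20 livers of 114 and 105 TPM. Acot3 followed with 32.4 TPM, then Acot8 with 20.1, Acot1 with 18.3, Acot4 with 14.8, Acot2 with 5.87 and Acot6 with 0.883 TPM. Several neighbours in this order were not separate. Acot13 was above Acot12 in 15 of 20 livers. Acot8 was above Acot1 in 13, of which 1 was a B6 female, 3 were B6 males, 4 C3 females and 5 C3 males. Acot1 was above Acot4 in 14, which were 4 of 5 B6 females, all males and 0 of 5 C3 females. Acot12 was above Acot3 in 19 livers, Acot4 above Acot2 in 18, and Acot2 above Acot6 in all 20. The place of Acot3 differed by sex. It was above Acot8 in all 10 females and below Acot8 in all 10 males.

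Acot5 was not detectable at this depth. Its only count was in a B6 female, and the other 19 libraries held 0, which allows at most 3 counts in each.

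**Figure D1:**
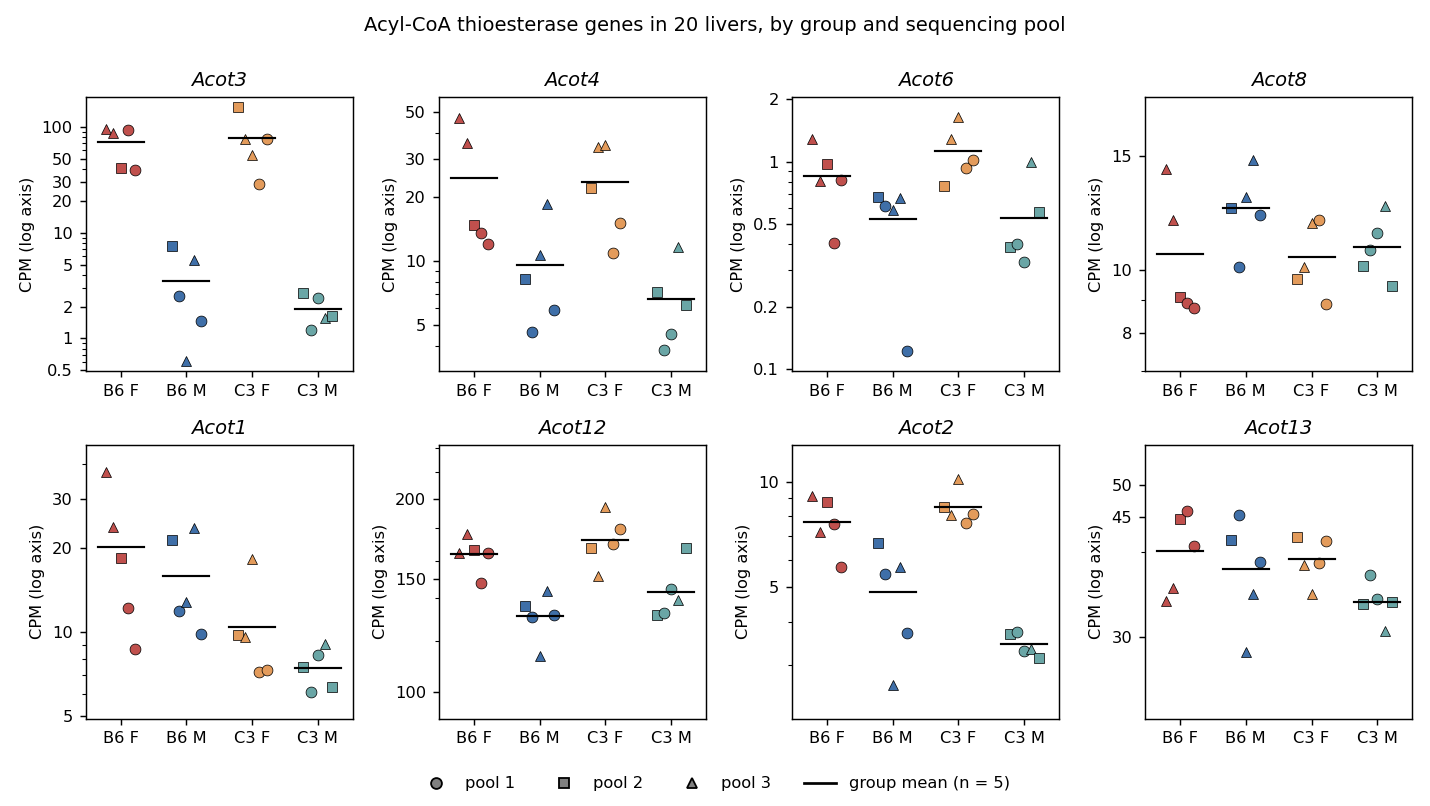
CPM (log axis) of the 8 tested thioesterase genes in each of 20 livers, with 5 livers per group of strain and sex (F, female; M, male). Shapes give the sequencing pool and lines the group mean. Acot3 in females lies between 28.7 and 153 CPM and in males between 0.612 and 7.50 CPM, and Acot4 is highest in pool 3 within each group.

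Female and male livers were compared first, for genes whose adjusted p was under 0.001 with a log2 fold change over 0.5 in either direction in the edgeR model of group and pool. In B6, 2 of the 8 tested members passed, Acot3 and Acot4, both higher in females, where 6.34% of all genes tested passed in either direction and 3.23% were higher in females. In C3, 3 of 8 passed, Acot2, Acot3 and Acot4, again all higher in females, where 6.90% of all genes passed and 4.11% were higher in females. No member was called lower in females in either strain, where 3.12% of all genes were in B6 and 2.79% in C3. The split of calls over all genes depended on the scaling: in B6 50.9% of them were higher in females with edgeR, 64.3% with upper-quartile scaling and 68.8% in limma on log2(TPM + 1), and in C3 59.6%, 70% and 73%. All genes that passed among the members were higher in females under each scaling. They lie in the chromosome 12 cluster, and Acot3 and Acot4 encode peroxisomal enzymes.

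Acot3, the type I enzyme that acts on long acyl chains in peroxisomes, had the largest sex difference of the members in both strains. In B6 females it was at 96.6, 87.6, 41.2, 93.9 and 39.1 CPM, and in B6 males at 7.50, 2.54, 0.612, 5.50 and 1.47 CPM. In C3 females it was at 153, 76.9, 54.5, 28.7 and 77.4 CPM, and in C3 males at 2.71, 1.21, 2.40, 1.57 and 1.64 CPM. Every female exceeded every male of its strain. The lowest female was 5.21-fold above the highest male in B6 and 10.6-fold above it in C3, while females of the same group differed by up to 5.34-fold among themselves and B6 males by 12.3-fold. Such a gap between all 5 females and all 5 males was present for 10.9% of the genes tested in B6 and 13.1% in C3, in either direction. The log2 fold change was 4.51 in B6 (standard error, SE, 0.49, edgeR adjusted p = 1.7e-06), or 22.8-fold, and 5.38 in C3 (SE 0.53, edgeR adjusted p = 4.3e-07), or 41.7-fold. It was 4.93, 2.45 and 5.58 within pools 1, 2 and 3 in B6, and 4.75, 6.15 and 5.32 in C3. The smallest of these rests on 1 B6 female at 41.2 CPM and 1 B6 male at 7.50 CPM, the highest male of all. In C3 the value of pool 2 rests on 1 female and that of pool 3 on 1 male.

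Acot4, a peroxisomal enzyme that acts on the CoA esters of dicarboxylic acids, was higher in females by less and varied with the pool. In B6 females it was at 47.0, 35.7, 14.8, 13.6 and 12.1 CPM, where the 2 highest livers were those of pool 3. In B6 males it was at 8.27, 4.65, 10.7, 18.5 and 5.86 CPM, and the highest values were again the 2 of pool 3. In C3 females it was at 21.9, 34.4, 34.9, 10.9 and 15.1 CPM, and in C3 males at 7.12, 3.80, 4.52, 11.6 and 6.24 CPM. The sexes overlapped in both strains. In all 4 groups the livers of pool 3 were above every liver of pools 1 and 2. Between pools 3 and 1 the log2 fold change of Acot4 was 1.53 (SE 0.12, edgeR adjusted p = 3.0e-09), or 2.88-fold, in a contrast added after the values by pool had been seen, in which 20.0% of all genes tested passed. Between pools 2 and 1, where 1.16% of all genes passed, no member did. With the pool in the model, the female against male log2 fold change was 1.30 in B6 (SE 0.15, edgeR adjusted p = 2.6e-06) and 1.61 in C3 (SE 0.15, edgeR adjusted p = 3.2e-07). Females were higher within each of the 3 pools, by 1.28, 0.83 and 1.54 on the log2 scale in B6 and by 1.62, 1.71 and 1.57 in C3. In pool 2 these values rest on 1 female and 1 male in B6 and on 1 female in C3. In pool 3 that of C3 rests on 1 male. Without a term for the pool, the values were 1.36 (edgeR adjusted p = 0.048) and 1.81 (edgeR adjusted p = 0.0094), and neither passed. With the libraries of pools 1 and 2 alone, an alternative added after seeing the data, they were 1.15 (edgeR adjusted p = 3.6e-04) and 1.64 (edgeR adjusted p = 1.0e-05), and both passed.

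Acot2, the mitochondrial enzyme of the cluster, passed in C3 only. In C3 females it was at 8.46, 8.07, 10.2, 7.66 and 8.10 CPM, and in C3 males at 3.67, 3.74, 3.30, 3.35 and 3.14 CPM, with no overlap. The log2 fold change was 1.33 (SE 0.19, edgeR adjusted p = 3.2e-05). Against a fold change of 0.5 itself (glmTreat) its adjusted p was 0.0011, and the call was lost. In B6 females it was at 9.12, 7.18, 8.76, 7.59 and 5.72 CPM, and in B6 males at 6.70, 5.45, 2.64, 5.72 and 3.71 CPM, where 4 of 5 females were above every male. The log2 fold change was 0.67 (SE 0.18, edgeR adjusted p = 0.0073). The sex effects of the strains differed by 0.66 (SE 0.26, edgeR adjusted p = 0.20), so that a difference between strains was not shown.

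The other 5 tested members did not pass in either strain. Acot6, a peroxisomal enzyme of low expression, was measured on 4 to 65 counts per B6 library. B6 females had a mean of 0.857 ± 0.316 CPM and B6 males of 0.532 ± 0.232 CPM (SD, n = 5). Its log2 fold change was 0.68 in B6 (edgeR adjusted p = 0.084). C3 females had a mean of 1.13 ± 0.342 CPM and C3 males of 0.538 ± 0.272 CPM (SD, n = 5), with a log2 fold change of 0.97 (edgeR adjusted p = 0.016). Acot12, which hydrolyses acetyl-CoA in the cytosol, had means of 164 ± 10.4 CPM in females and 131 ± 11.1 CPM in males of B6, and of 173 ± 15.6 and 143 ± 14.5 CPM in those of C3 (SD, n = 5). The B6 sexes did not overlap, with 148 CPM in the lowest female and 144 CPM in the highest male. Its log2 fold changes of 0.32 (edgeR adjusted p = 0.0043) and 0.28 (edgeR adjusted p = 0.011) were under the fold threshold and also missed that for p.

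Acot13, Acot1 and Acot8 make up the remainder. Acot13 had log2 fold changes of 0.092 in B6 (edgeR adjusted p = 0.32) and 0.26 in C3 (edgeR adjusted p = 0.0068). Acot1 had 0.26 (95% interval -0.23 to 0.74, edgeR adjusted p = 0.41) and 0.33 (95% interval -0.19 to 0.85, edgeR adjusted p = 0.30). Acot8 was the only member with negative values, of -0.25 (95% interval -0.46 to -0.031, edgeR adjusted p = 0.071) and -0.11 (95% interval -0.33 to 0.11, edgeR adjusted p = 0.41). Among the 8 tested members, 7 had a fold change above 0 in B6, and in C3 also 7, where 50.2% and 51.9% of all genes tested did. At an adjusted p under 0.05 alone, 4 members passed in B6, where 34.6% of all genes did, and 6 in C3, where 40.0% did.

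**Figure D2:**
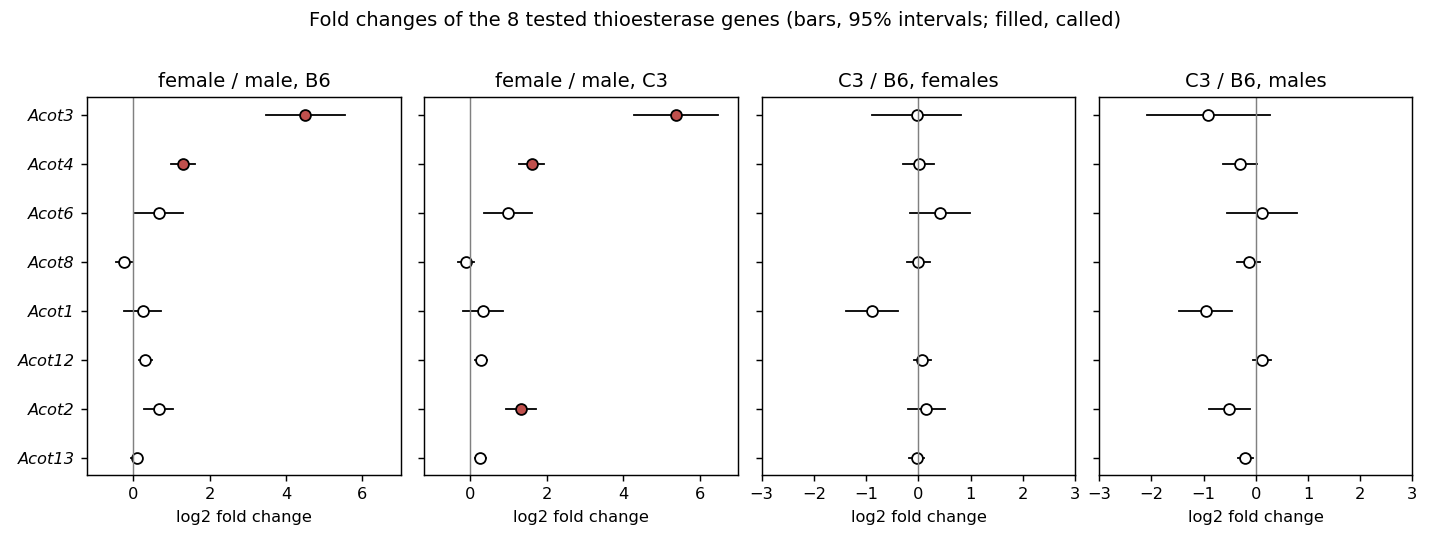
Log2 fold changes of the 8 tested members in the edgeR model for the 4 comparisons between groups of 5 livers, with 95% intervals as bars. Filled points passed both thresholds, which were Acot3 and Acot4 between the sexes of both strains and Acot2 between those of C3, and no point passed between the strains.

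The members were then summed by the place of their proteins, as a description with no test. The summed TPM of the 5 peroxisomal members averaged 107 ± 42.6 in females and 34.1 ± 9.74 in males of B6 (SD, n = 5). In C3 the corresponding sums were 106 ± 39.7 and 25.9 ± 4.23 (SD, n = 5). The lowest females stood at 63.6 and 53.3 TPM, and the highest males at 49.5 and 33.2 TPM, so that the sexes did not overlap. The sum of the cytosolic Acot1 and Acot12 was 148 ± 23.5, 109 ± 16.4, 134 ± 17.4 and 101 ± 9.33 TPM (SD, n = 5) in B6 females, B6 males, C3 females and C3 males. That of the mitochondrial Acot2 and Acot13 was 137 ± 13.2, 117 ± 19.6, 128 ± 8.53 and 98.8 ± 6.70 TPM (SD, n = 5) in the same order. All 3 sums had a higher mean in females of both strains, and on the TPM scale the median of all genes tested was itself 0.109 and 0.102 higher on the log2 scale in females of B6 and C3 than in the edgeR fit. The peroxisomal genes held 26.5% ± 7.51 of the summed TPM of all members in B6 females against 13.1% ± 3.11 in B6 males (SD, n = 5), and 28.1% ± 7.38 against 11.5% ± 2.03 in C3 (SD, n = 5).

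The make-up of the peroxisomal sum also differed by sex. Acot3 held 57.3% ± 8.63 of it in B6 females and 56.9% ± 14.8 in C3 females, against 7.84% ± 5.70 in B6 males and 5.60% ± 1.92 in C3 males (SD, n = 5). Acot8 held 66.9% ± 8.77 in B6 males and 71.4% ± 6.68 in C3 males, against 20.6% ± 5.29 and 21.0% ± 10.7 in the females (SD, n = 5). Its own level had means of 20.5 and 22.2 TPM in females and males of B6, and of 19.2 and 18.3 TPM in those of C3. The larger share of Acot8 in males thus follows from the lower levels of the other genes in the sum. The share of Acot4 had means between 20.7% and 23.5% in the 4 groups.

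**Figure D3:**
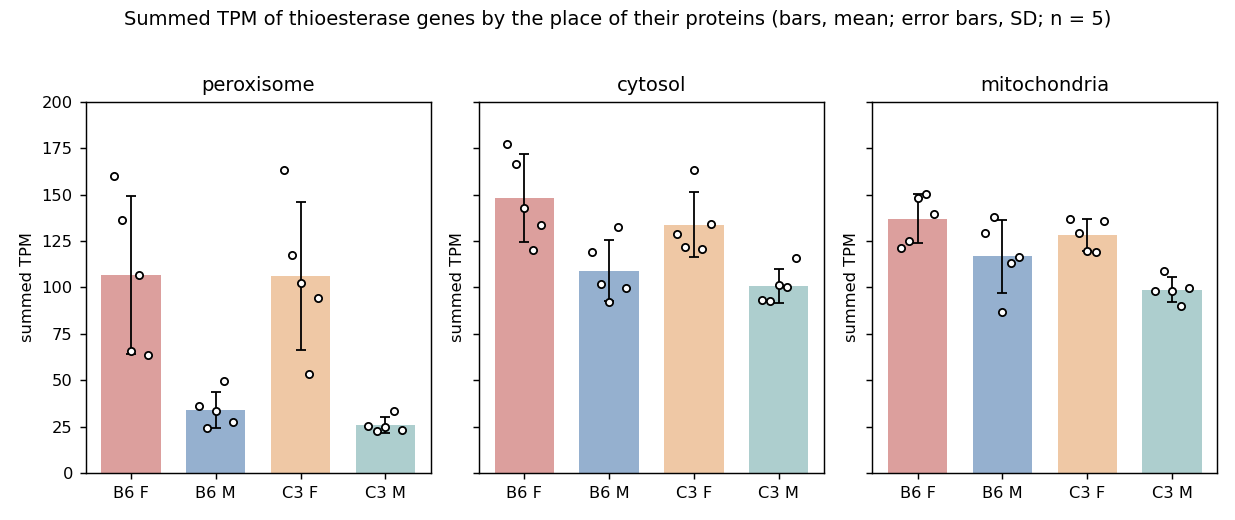
Summed TPM of the members by the compartment of their proteins (peroxisome, Acot3, Acot4, Acot5, Acot6 and Acot8; cytosol, Acot1 and Acot12; mitochondria, Acot2 and Acot13) in each group. Bars give the mean, error bars the SD and points the 5 livers. The peroxisomal sum lies between 53.3 and 163 TPM in females and between 22.8 and 49.5 TPM in males.

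Between the strains no member passed in females, where 9.40% of all genes tested passed, nor in males, where 9.64% passed. These comparisons use the same groups as those between the sexes and are not independent of them. At an unadjusted p under 0.05 in edgeR there was 1 member in females, Acot1, and there were 3 in males, Acot1, Acot2 and Acot13, where 41.9% and 44.3% of all genes tested were under it. DESeq2 called Acot1 in both sexes, where it called 9.55% and 10.3% of all genes with an adjusted p, and limma on log2(TPM + 1) called no member.

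Acot1, the cytosolic enzyme of the cluster, had the largest strain difference relative to its error. It was at 37.7, 23.8, 18.4, 12.2 and 8.71 CPM in B6 females and at 9.78, 9.60, 18.3, 7.18 and 7.32 CPM in C3 females, which overlapped. It was at 21.3, 11.9, 12.8, 23.6 and 9.85 CPM in B6 males and at 7.46, 6.10, 8.27, 9.05 and 6.35 CPM in C3 males, and every C3 male was below every B6 male. Such a separation of all 5 against all 5 livers was present for 15.1% of the genes tested in males and for 12.8% in females, in either direction. The log2 fold change of C3 against B6 was -0.88 in females (SE 0.23, edgeR adjusted p = 0.0070) and -0.96 in males (SE 0.24, edgeR adjusted p = 0.0049), past the fold threshold and short of that for p. With DESeq2 the adjusted p was 9.2e-04 and 4.4e-04. Acot1 also varied with the pool, with a log2 fold change of 0.94 between pools 3 and 1 (SE 0.20, edgeR adjusted p = 4.2e-04), where 20.0% of all genes tested passed. C3 was lower within each pool, by -0.50, -0.91 and -1.17 in females and by -0.60, -1.62 and -0.94 in males. In pool 2 these values rest on 1 female of each strain and on 1 B6 male. In pool 3 that of males rests on 1 C3 male.

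The other members had smaller or less certain strain differences. Acot3 had a log2 fold change of -0.035 in females (95% interval -0.89 to 0.82, edgeR adjusted p = 0.96) and -0.91 in males (95% interval -2.08 to 0.27, edgeR adjusted p = 0.22). Acot2 was lower in C3 males, at -0.50 (95% interval -0.90 to -0.11, edgeR adjusted p = 0.046), and at 0.15 in females (95% interval -0.21 to 0.52, edgeR adjusted p = 0.54). Acot13 was at -0.20 in males (95% interval -0.35 to -0.056, edgeR adjusted p = 0.031). Acot4, Acot6, Acot8 and Acot12 had adjusted p-values of at least 0.27 in females, and the smallest among them in males was 0.146, for Acot4 (edgeR).

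The difference between the sex effects of the strains passed for no member, where 0.401% of all genes tested passed. At an unadjusted p under 0.05 there was 1 member in edgeR, Acot2, where 16.1% of all genes were under it, and DESeq2 called none. For Acot3 the female against male log2 fold change was higher in C3 by 0.87 (95% interval -0.57 to 2.32, edgeR adjusted p = 0.59), and for Acot4 by 0.30 (95% interval -0.14 to 0.75, edgeR adjusted p = 0.52).

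The genes around the cluster were examined next. Within 200 kb of it on either side lie 7 other loci, Papln, Numb, 2410016O06Rik, Dnal1, Pnma1, Elmsan1 and Ptgr2. Of these, 6 were tested and 0 passed in any comparison with edgeR. Over all genes tested, 6.34% and 6.90% passed by sex in B6 and C3. By strain 9.40% and 9.64% passed in females and males, and 0.401% in the interaction. A count of 0 among 6 genes is near these shares. By sex the largest log2 fold change among them was 0.29, for Dnal1 in C3 (edgeR adjusted p = 0.14). The smallest adjusted p was 0.0032, for Ptgr2 in B6, at -0.20 (edgeR). Papln, the farthest upstream of these loci, was lower in C3 by 0.64 on the log2 scale in females (edgeR adjusted p = 0.0032) and by 0.59 in males (edgeR adjusted p = 0.0078), which did not pass. Within the cluster itself, Acot1 lies between Acot2 and Acot4, and its log2 fold changes by sex of 0.26 and 0.33 stood below those of both neighbours, a difference between genes that was not tested.

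**Figure D4:**
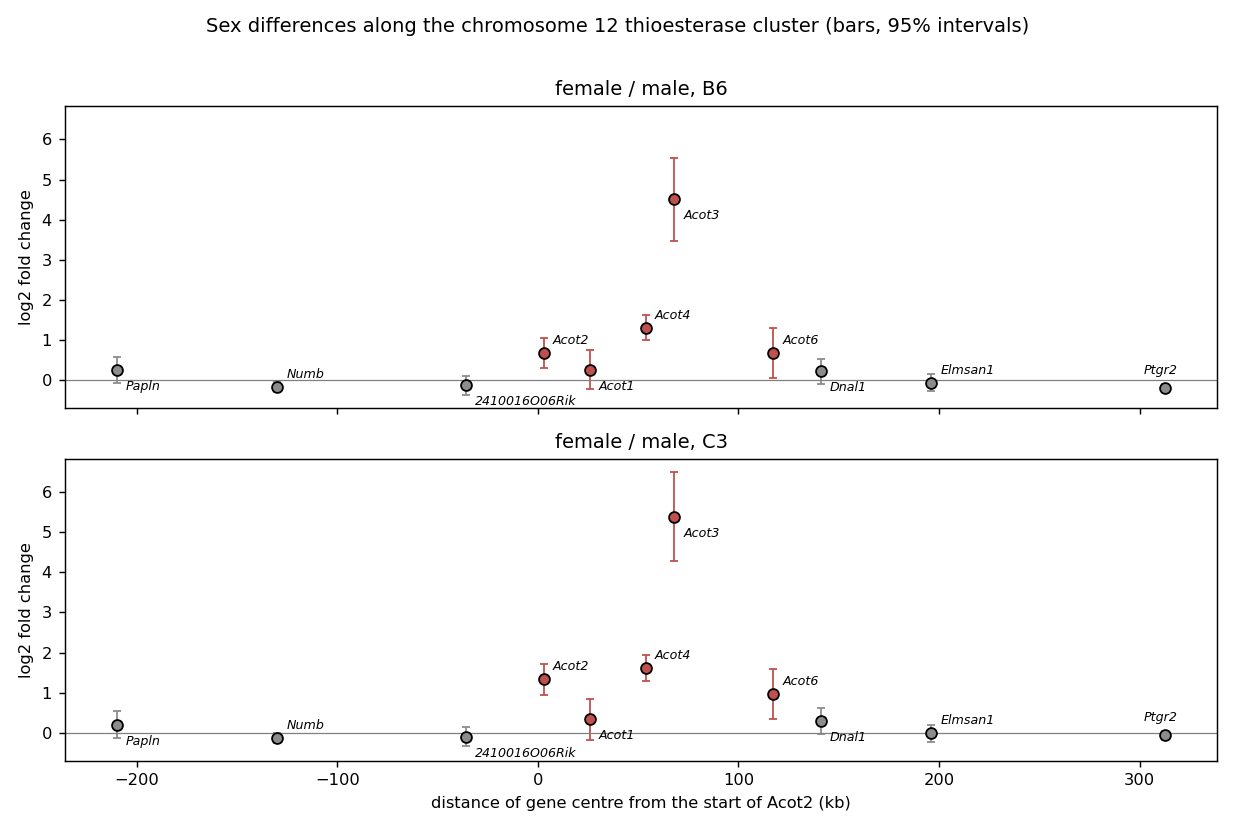
Female against male log2 fold change (with 95% intervals) of the genes along the chromosome 12 cluster in each strain, by the distance in kb of each gene's centre from the start of Acot2. Thioesterase genes are red and other genes grey. Acot3 stands at 4.51 in B6 and 5.38 in C3, and no neighbour outside the cluster exceeds 0.29.

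The 250 bases before the annotated start of each gene were searched on both strands for short motifs of factors that act on such genes or on sex differences in liver. The nuclear receptor half-site AGGTCA was present before Acot4, Acot5 and Acot12, where 12.7% of 24607 promoters of the same length hold it. A pair of such half-sites in direct repeat with a base between them (DR1), the form that PPARα binds, was searched with some positions free, and was present before no member and in 0.341% of promoters. The STAT5 element TTCNNNGAA, read by a factor under growth hormone control, was present before no member and in 6.84% of promoters. The TATA box TATAAA was present before Acot4 and Acot6 and in 12.1% of promoters. The windows of the neighbours Acot3 and Acot4, which both passed by sex, are printed 5′ to 3′ from mm9, at chr12:85392851-85393100 and chr12:85379079-85379328 of the forward strand, with matches to these motifs in capitals.
Acot3: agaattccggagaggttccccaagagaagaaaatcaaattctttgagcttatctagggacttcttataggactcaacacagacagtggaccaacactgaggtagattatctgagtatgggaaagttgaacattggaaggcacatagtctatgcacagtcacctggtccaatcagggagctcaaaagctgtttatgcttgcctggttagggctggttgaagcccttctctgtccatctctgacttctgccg
Acot4: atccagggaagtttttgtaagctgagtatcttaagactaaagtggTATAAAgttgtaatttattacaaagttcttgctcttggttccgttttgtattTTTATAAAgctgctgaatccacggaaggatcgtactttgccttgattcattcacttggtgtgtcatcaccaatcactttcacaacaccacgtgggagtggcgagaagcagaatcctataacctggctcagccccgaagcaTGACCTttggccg
The Acot3 window held none of the 4 motifs, had a GC content of 46% and 2 CpG sites. The Acot4 window held a half-site on the reverse strand 13 to 8 bases before the start. Its matches to the TATA box lay 205 to 200 and 151 to 146 bases before the start, the latter overlapping a reverse match at 153 to 148. The GC content of this window was 42.4%, with 7 CpG sites. The median over all promoters was 54.8% and 9 CpG sites. Among the members, Acot13 had the most, with 72% and 33 CpG sites. A match is only a match of letters, and its absence refers to these windows alone.

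To place the members among genes of related function, genes of 5 lists were read from the same fits. Beside the counts of each list stand the shares over all genes tested. By sex these were 6.34% in B6 and 6.90% in C3. By strain they were 9.40% in females and 9.64% in males, and in the interaction 0.401%. The first list was the peroxisomal handling of acyl-CoA, with 18 genes tested. In B6, 2 were higher and 6 lower in females, with a median log2 fold change of -0.26 beside 0.0018 over all genes tested. In C3, 2 were higher and 5 lower, with a median of -0.047 beside 0.015. Abcd2, a peroxisomal transporter of very long acyl-CoA, was higher in females by 3.95 in B6 (edgeR adjusted p = 4.4e-07) and 4.29 in C3 (edgeR adjusted p = 2.2e-07), with means of 121 ± 30.3 against 8.78 ± 7.44 CPM in B6 and 163 ± 25.2 against 9.82 ± 4.24 CPM in C3 (SD, n = 5). Scp2, a carrier and thiolase of peroxisomes, fell by 1.55 and 1.53 on the log2 scale in females of B6 and C3 (edgeR adjusted p of 6.0e-10 and 7.7e-10). Nudt7, which breaks down coenzyme A inside peroxisomes, fell by 1.43 and 2.03 (edgeR adjusted p of 3.9e-07 and 6.1e-09), with 196 ± 55.3 against 525 ± 106 CPM (SD, n = 5) in B6. In B6 the fourth named gene was Slc25a17, a peroxisomal carrier of coenzyme A, at -0.85 (edgeR adjusted p = 2.1e-08), and in C3 it was Phyh, an enzyme of branched chain breakdown, at -0.97 (edgeR adjusted p = 3.9e-09). Between the strains 0 of 18 passed in females and 1 in males, Decr2, lower in C3.

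The list of PPARα and its known targets, without the members, held 28 tested genes. In B6, 1 was higher in females and 4 were lower, with a median log2 fold change of -0.12. In C3, 6 were higher and 0 lower, with a median of 0.057. In B6, Cyp4a31, an omega-hydroxylase of fatty acids, was higher by 1.79 (edgeR adjusted p = 1.1e-04), and Acaa1b and Pex11a, which act in peroxisomal oxidation and in the division of peroxisomes, fell by 0.99 and 0.94 on the log2 scale (edgeR adjusted p of 1.1e-05 and 5.5e-07). In C3 the fatty acid hydroxylases Cyp4a10, Cyp4a14 and Cyp4a31 were higher in females by 5.05, 4.92 and 3.84 (edgeR adjusted p of 1.8e-07, 8.9e-05 and 3.2e-07), and Vnn1, a pantetheinase, by 3.65 (edgeR adjusted p = 5.6e-07). The sex effect differed between the strains for 3 of the 28, Cd36, Cyp4a10 and Vnn1, each with a higher fold change in C3, by 2.14, 3.71 and 3.41 (edgeR adjusted p of 4.3e-04, 8.5e-04 and 2.5e-04).

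Between the strains, 2 genes of this list were higher and 4 lower in C3 females, where 9.40% of all genes tested passed. In C3 males 1 was higher and 11 were lower, where 9.64% of all genes tested passed. The medians were 0.020 in females and -0.27 in males, beside 0.0195 and 0.015 over all genes tested. Fgf21, a hormone of the fasted liver, was higher in C3 females by 4.32 (edgeR adjusted p = 4.6e-07), and Cyp4a14 fell by 3.90 on the log2 scale (edgeR adjusted p = 1.0e-04). In males Cyp4a14 fell by 5.92 (edgeR adjusted p = 8.2e-06) and Vnn1 fell by 5.26 (edgeR adjusted p = 1.8e-09). The level of Vnn1 was 48.1 ± 18.8 CPM in B6 males and 1.31 ± 0.171 CPM in C3 males (SD, n = 5).

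**Figure D5:**
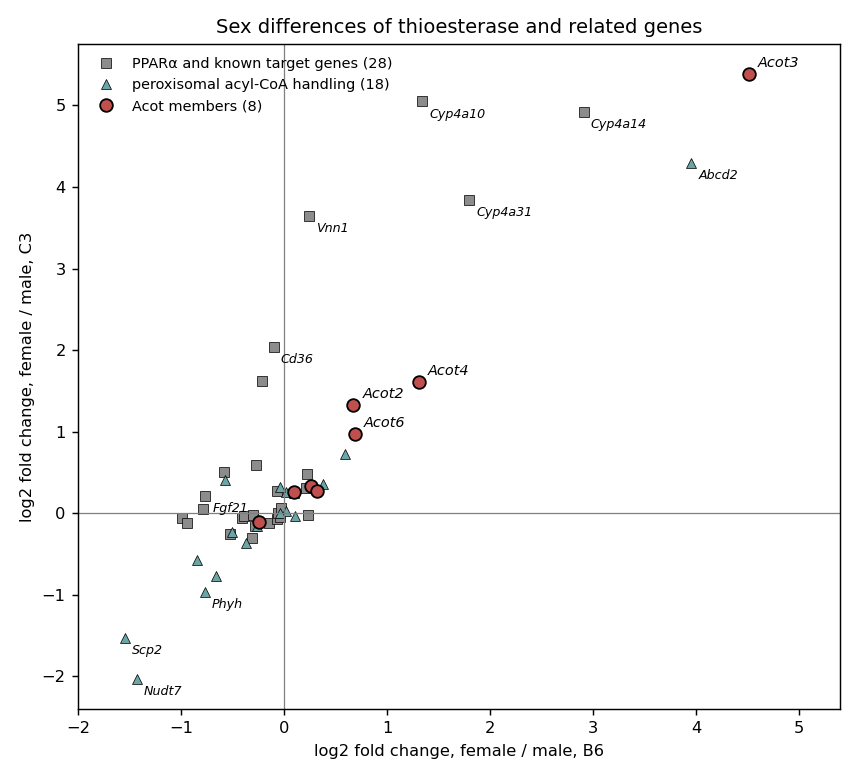
Female against male log2 fold change in B6 (horizontal) and C3 (vertical) of the 8 tested members (circles), 28 genes of PPARα and its targets (squares) and 18 genes of peroxisomal acyl-CoA handling (triangles). Each point is 1 gene over 5 females and 5 males per strain. Acot3 and Abcd2 are high in both strains, at 4.51 and 3.95 in B6 and 5.38 and 4.29 in C3, and Scp2 and Nudt7 are low in both.

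Other thioesterases and their relatives, with 10 tested genes, showed 0 calls in B6 by sex with edgeR, and 2 higher and 2 lower in C3 females. In C3, Acot11, which acts on long acyl-CoA, was higher in females by 1.26 (edgeR adjusted p = 8.7e-05), Acot9, a mitochondrial enzyme, by 0.64 (edgeR adjusted p = 1.6e-04), and Them4 fell by 1.29 on the log2 scale (edgeR adjusted p = 2.5e-06). Them5 was also called lower in C3 females, but its level there, 0.061 ± 0.047 CPM (SD, n = 5), lay at the limit of detection, against 0.819 ± 0.319 CPM in males (SD, n = 5), and no fold change is given. The medians by sex were -0.17 in B6 and 0.078 in C3. Acot11 fell by 2.93 in C3 females (edgeR adjusted p = 4.0e-11) and by 4.31 in C3 males (edgeR adjusted p = 8.9e-13), from 13.2 ± 2.76 to 1.77 ± 0.617 CPM and from 14.5 ± 2.98 to 0.781 ± 0.324 CPM (SD, n = 5). Ppt1, a lysosomal thioesterase, was higher in C3 females by 0.57 (edgeR adjusted p = 2.4e-07).

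The acyl-CoA synthetases, the enzymes of the opposite reaction, had 16 tested genes. In B6, 1 was higher and 2 lower in females, and in C3 the numbers were 1 and 1. Acss3, a mitochondrial synthetase of short acyl chains, was higher in females by 1.00 in B6 (edgeR adjusted p = 8.4e-05) and 1.56 in C3 (edgeR adjusted p = 9.5e-07). Acsm3 and Acsl1 fell by 0.65 and 0.53 on the log2 scale in B6 females (edgeR adjusted p of 1.4e-05 and 5.6e-05). Acsl6 was called lower in C3 females, at 0.017 ± 0.016 CPM against 0.512 ± 0.180 CPM in males (SD, n = 5), and the female level is below the limit of detection. Between the strains 2 were lower in C3 females, of which Slc27a1 fell by 0.72 (edgeR adjusted p = 3.4e-05) and Acsm3 by 0.63 (edgeR adjusted p = 1.2e-05). In males 3 were lower, and the named genes were Acss3 at -1.13 (edgeR adjusted p = 2.4e-05) and Acsm3 at -0.92 (edgeR adjusted p = 1.1e-07). The medians were -0.094 and -0.075 by sex, and -0.16 and 0.0066 by strain. Of 7 genes of coenzyme A synthesis, 0 passed in any of the 5 comparisons (edgeR).

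The genes whose pattern over the 20 livers was most like that of Acot3 or Acot4, both higher in females of each strain, were sought among all other genes tested. Likeness was the root mean square difference of log2 CPM, each centred on its own mean. For Acot3, whose own SD was 2.67, the nearest were Abcd2 at 0.76, Rsph4a at 0.83 and Sybu at 1.02. For Acot4, whose own SD was 1.07, Metrn at 0.43 and Mir3968 at 0.49 were among the nearest. The livers share sex and pool, so these distances describe only the order of the genes. Nothing in them bears on function.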

How the data were processed

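The authors extracted total RNA from the left lateral lobe of 20 livers, removed ribosomal RNA, made stranded libraries and sequenced them as read pairs of 125 bases. According to the methods and the submitters' processing notes, they trimmed reads with cutadapt 1.9.1, aligned them to mm9 with STAR 2.5.1b and counted them by strand on RefSeq genes with featureCounts of Subread 1.5.0-p1, without pairs that mapped to several places or genes. The authors deposited raw counts per gene, without normalization, and TPM values, whose gene length is not given in the sources used here. In the deposited tables the headers of the symbol and identifier columns are exchanged, and they were read by content.

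Counts were tested in edgeR 4.0.16 (R 4.3.3): filterByExpr on the 4 groups, TMM normalization and a quasi-likelihood fit of group and pool over all 20 libraries, with Benjamini-Hochberg adjustment over 13704 genes. A gene was called at an adjusted p under 0.001 and a log2 fold change over 0.5 in either direction. The standard error of a log2 fold change is its size divided by the root of its F statistic. CPM used TMM library sizes, and log2 CPM a prior count of 2. TPM was used to compare genes. Counts between 27370921 and 46835745 per library set the precision. Limits of detection cover counting error only, and 95% intervals of fold changes include the spread between livers. Replicates are separate mice. Pairs of livers of 1 group had a Pearson r of log2 CPM across genes between 0.9725 and 0.9932 and differed by more than counting noise.

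The 9 members and all lists were chosen with earlier results of these data known. The text names all members, at most 4 called genes of each list by sex and 2 by strain (those with the largest change), all loci within 200 kb of the cluster, and the 3 genes most like each member called in both strains. Some genes that this rule names are not reported here. Genes added for a contrast are named as such where they occur. Marker lists for hepatocytes, Kupffer, endothelial and stellate cells, cholangiocytes, lymphocytes, erythroid cells and adipocytes served as checks. Sequences were read from mm9 with the GENCODE annotation of that build by scripts in Python 3.11.15 with Biopython 1.88. Protein sequences were not analysed here.

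The pipeline was tested on simulated data with 200 of 13565 genes changed by a log2 fold change of 1. It called 140 of them for female against male in B6 and 107 in the interaction, with 0 false calls in each, and made 0 calls where nothing was changed. The simulated counts held no effect of the pool, and only B6 females were changed. These numbers therefore do not give the rate of false calls in the real data. Alternatives were DESeq2 1.42.0, limma 3.58.1 on log2(TPM + 1) and log2(TPM + 0.1), glmTreat, other normalizations, no filter, no pool term, a replicate block, fewer libraries, an adjusted p under 0.05, and leaving out each liver.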

Additional observations from a re-analysis of the deposited data

Results flagged for a closer look

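Of 32 sets of 5 livers (8 tested members in 4 groups), 2 held a liver whose gap to the nearest other liver was an unusually large share of the range of its group by Dixon's criterion for 5 samples (0.71), which chance alone meets in about 1 of 20 sets. For Acot1 in C3 females, replicate 3 was at 18.3 CPM and the next liver at 9.78 CPM, a gap of 0.7656 of the range. For Acot6 in B6 males, replicate 5 was at 0.123 CPM, on 4 counts, and the next liver at 0.588 CPM, a gap of 0.8449 of the range. Neither liver decided a call: without C3 female replicate 3 the C3 against B6 log2 fold change of Acot1 in females was -1.05, and Acot6 was not called with or without B6 male replicate 5.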

How the results depend on the processing

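Of the single-member values, 449 kept their direction and their side of the threshold over the alternatives that used other settings, 7 came to pass, 3 no longer passed and 13 changed sign. When 1 liver was left out, 455 did so and 25 changed sign, and no call of a member was lost or gained. Acot3 passed between the sexes of both strains in all alternatives, with adjusted p between 3.7e-16 and 5.1e-04 in B6, and in C3 between 3.1e-21 and 3.7e-05. Members called were 2, 3, 0, 0 and 0 in the 5 comparisons (sex in B6, sex in C3, strain in females, strain in males, interaction). They became 1 for sex in B6 without a pool term, where Acot4 was lost, as also in C3, 1 for each strain comparison with DESeq2 (Acot1), and 3, 4, 1, 2 and 0 at an adjusted p under 0.05 with the same fold threshold. For sex in C3 they were 2 with glmTreat, where Acot2 was lost. The cause was not tested.

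Calls over all genes were 869, 945, 1288, 1321 and 55 in the same order. With glmTreat they were 294, 314, 525, 585 and 24. At an adjusted p under 0.05 they were 1753, 2189, 2143, 2327 and 302. With the libraries of pools 1 and 2 alone, with fewer samples, they were 380, 428, 626, 786 and 4. Without a pool term they were 421 and 482 by sex, 815 by strain in females and 20 in the interaction. DESeq2 gave 181 in the interaction. With only the 2 groups compared, sex in C3 gave 625. Leaving out 1 liver gave 32 to 55 in the interaction, with 32 without B6 male replicate 1, 33 without C3 male replicate 4 and 34 without C3 female replicate 1.

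The values that changed sign were all small or uncertain, and none passed. Between strains in females, Acot4 was at -0.0012 with DESeq2, -0.050 and -0.050 with limma at pseudocounts of 1 and 0.1, -0.0060 with RLE and -0.033 with upper-quartile normalization, and -0.072 without a pool term. Acot3 there was at 0.12 without a pool term, 0.11 with the replicate block, 0.0052 with only the 2 groups and 0.31 with pools 1 and 2. With those pools Acot8 in females was at 0.18, Acot6 in males at -0.18 and the sex difference of Acot1 in B6 at -0.11. Without 1 liver the strain difference in females ran from -0.35 to 0.24 for Acot3, -0.11 to 0.12 for Acot4, -0.092 to 0.085 for Acot8 and -0.073 to 0.00056 for Acot13. That of Acot6 in males ran from -0.14 to 0.30, and the interaction from -0.12 to 0.32 for Acot1 and -0.088 to 0.0077 for Acot12.

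Mice of the same replicate number showed little sign of being paired once the pool was removed. Correlations of deviations exceeded 0.1 in 1 and 0 of 5 pairs between the sexes and in 3 and 3 of 5 between the strains. With the pool removed, their means were 0.0154 and 0.0123 between the sexes of B6 and C3. Between the strains they were 0.0457 in females and 0.0482 in males. The replicate block gave 2, 3, 0, 0 and 0 members and 845, 933, 1222, 1263 and 40 genes. The order of group means was the same in TPM and CPM for 6 of 8 members, with Acot6 and Acot8 excepted. Depth limits Acot5 and Acot6.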

Other observations

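Besides Acot4 and Acot1, other members also differed between the sequencing pools. Between pools 3 and 1, in a contrast added after the values had been seen, 20.0% of all genes tested passed, among them Acot4 and Acot1. The log2 fold change was 0.81 for Acot6 (edgeR adjusted p = 0.0063), 0.29 for Acot8 (edgeR adjusted p = 0.0059) and -0.28 for Acot13 (edgeR adjusted p = 2.9e-04). None of them passed, and Acot13 met the threshold for p but not that for the fold change. For Acot3 the log2 fold change was 0.35 (edgeR adjusted p = 0.44), for Acot2 0.093 (edgeR adjusted p = 0.61) and for Acot12 0.027 (edgeR adjusted p = 0.74). Between pools 2 and 1 the largest value relative to its error was 0.60, for Acot4 (edgeR adjusted p = 0.0041).

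The spread between livers was not the same in the 2 groups of males. For Acot2 the coefficient of variation was 33.8% in B6 males and 7.49% in C3 males, for Acot3 81.9% and 32.7%, and for Acot1 38.6% and 16.8% (n = 5 each). It was also higher in B6 males for Acot4, Acot8 and Acot13, and lower for Acot6 (43.5% and 50.7%) and Acot12 (8.45% and 10.1%). B6 male replicate 3 was the lowest of its group for Acot2, Acot3, Acot12 and Acot13, at 2.64, 0.612, 114 and 28.5 CPM. The coefficients include differences between the sequencing pools, over which the 2 groups of males were not divided alike. These differences in spread were not tested.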
